A study of Homo sapiens with 6 samples.

Results

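Liver secreted plasma protein genes are the genes for albumin, transferrin, apolipoproteins, clotting factors, protease inhibitors and complement factors that liver cells release into blood. A list of 36 such genes was examined in chromatin-associated RNA (caRNA) of HepG2, a human liver cancer cell line, and its members were taken by name and protein role, with earlier results of these data known. RNA of 3 biological replicates was ligated, and each ligated RNA was divided between a balanced reverse transcription, in which every dNTP was at 1 mM, and an imbalanced one, in which dATP was at 1 mM and the others at 2 µM. The 6 libraries thus form pairs, and all came from unperturbed cells of 1 line. Positions belong to a member when they lie inside its GENCODE release 44 gene body on its own strand. Of the 36 genes, 24 have listed positions under imbalanced dNTP, with 5399 positions in all, among 2026 protein-coding genes with 133140 listed positions.

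2′-O-methylation (Nm) adds a methyl group to the ribose of an RNA base and leaves base pairing as it is. Nm-mut-seq reads it through reverse transcription: when dATP is in excess over the other dNTPs, the enzyme tends to place A opposite a methylated G, A or C, and the position is then read as T. The mutation ratio is the share of reads with T at a position, and the input of a replicate is its own balanced library. Hepatocytes devote much of their transcription to plasma proteins. Spliced and unspliced RNA of such genes both remain on chromatin, so exons and introns can be read in one sample.

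The library labels could be set against marker genes only through listed positions. Positions of the hepatocyte and hepatoblastoma markers ALB, AFP, SERPINA1, APOA1 and HNF4A are listed under imbalanced dNTP, and TTR has 3 listed positions, all under balanced dNTP. The markers of leukocytes (PTPRC and CD3E), erythroid cells (HBB), fibroblasts (COL1A1), endothelium (PECAM1) and squamous epithelium (KRT5) have no listed position in either table. Depth summed over listed positions ranged from 17063930 to 22485865 in the imbalanced libraries and from 22974020 to 34367262 in the balanced ones. The members took 0.824%, 0.858% and 0.979% of that depth in imbalanced replicates 1, 2 and 3, and 0.597%, 0.600% and 0.691% in balanced replicates 1, 2 and 3. Replicate 3 was the deepest for the members under imbalanced dNTP, with a median depth of 32 per listed position against 23 and 21.

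Sites were called by the study's criteria on depth, reads and input, met in every replicate: 10 or more reads, 3 or more of them with T, and a mutation ratio over 3 times the input's, which counts as 0 where the balanced table has no entry. The study also required a ratio above a spike-in background, which was not applied here, so these calls are looser than the study's. Over all listed positions the criteria applied here gave 29651 called sites, 9484 of them in protein-coding genes. The study reports far fewer sites under its full criteria, both in all and in protein-coding genes. How many of the calls made here would pass the background criterion was not tested. For the list, the criteria applied here gave 334 called sites in 10 members, 251 in exons and 83 in introns. With the imbalanced and balanced libraries exchanged, 8 positions passed. T shares are low under balanced dNTP, so few positions could pass this way. The exchange does not replace the spike-in and gives no rate of false calls. Of the positions covered by 10 or more reads in every imbalanced library, 8.09% were called in the members (334 of 4130), against 12.9% in the other protein-coding genes and 26.7% over all positions of the table. For 235 of the 334 sites the balanced table has no entry. A position is listed for its reads with T, so a shallow position needs a higher ratio to be listed or called, and ratios of genes or positions that differ in depth are not on an equal footing.

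Sets of sequences show what the called sites look like, each as 21 nt of the RNA written as DNA, 5′ to 3′, with the called base in capitals. The first set takes, from each member with 10 or more called sites, the site of highest mean ratio among those covered 50 times or more in every imbalanced library, and the next sites of ALB and AFP in that order. That site of FGL1 is given by position only. The lower ranks and the SERPINA3 site, whose depth is below 50, were added after their values were seen. Coordinates are hg38.
ALB exon 13, chr4:73419555-73419575, plus strand: actgaaagctGttatggatga
ALB exon 3, chr4:73406629-73406649, plus strand: ggtgttgattGcctttgctca
ALB exon 7, chr4:73412081-73412101, plus strand: acggaatgctGccatggagat
ALB exon 6, chr4:73410338-73410358, plus strand: ggcttcgtctGccaaacagag
ALB exon 11, chr4:73417573-73417593, plus strand: tccaactcttGtagaggtctc
AFP exon 9, chr4:73449396-73449416, plus strand: gctaaaggatAccaggagtta
AFP exon 13, chr4:73453850-73453870, plus strand: gagaaatgctGccaaggccag
AFP exon 12, chr4:73452416-73452436, plus strand: ggacacttatGtatcagacat
AFP exon 9, chr4:73449421-73449441, plus strand: agaagtgtttCcagactgaaa
AFP exon 4, chr4:73440754-73440774, plus strand: tccagaacctGtcacaagctg
C3 exon 36, chr19:6680231-6680251, minus strand: gaggatgactGtctagctttc
SERPINA3 intron 2, chr14:94616691-94616711, plus strand: ggaaggtttcCcctagaaaac

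In this set every called G follows a T in the DNA letters, which is U in the RNA. The second set, the 5 called sites of TF and the called site of FGG, is shown because all 6 are a G with U on both sides. It was chosen after the values were seen.
TF exon 2, chr3:133748448-133748468, plus strand: ggtgtgcagtGtcggagcatg
TF exon 5, chr3:133755389-133755409, plus strand: tgtgccccttGtgcggatggg
TF exon 8, chr3:133757903-133757923, plus strand: ctatgagtatGtcactgccat
TF exon 13, chr3:133768080-133768100, plus strand: tctgtaagctGtgtatgggct
TF exon 16, chr3:133777082-133777102, plus strand: ggcaacttttGtttgttccgg
FGG exon 8, chr4:154606730-154606750, minus strand: atgaacaagtGtcacgctggc

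By protein role, the carriers of the list held most called sites. Of 8 carrier genes 5 have listed positions and 3 (ALB, AFP and TF) have called sites, 220 in all. Of 9 genes grouped under clotting and fibrinolysis 5 have listed positions, and FGL1 and FGG together hold 70 called sites. Of these, 69 lie in the body of FGL1 upstream of its canonical transcript. FGL1 was grouped here as a relative of the fibrinogen chains, so the total is not one for clotting factors. Of 8 genes for protease inhibitors and hyaluronan-binding proteins 6 have listed positions, and SERPINA3, SERPINA1 and AHSG hold 28. Of 4 complement and acute phase genes 3 have listed positions, and C3 holds all 15 called sites. APOA2 holds the 1 called site among 5 apolipoproteins. Neither gene of the remaining role, cell adhesion and growth factors, has a called site. ALB, AFP and FGL1 together hold 284 of the 334 sites (85.0%), and they rank 20, 24 and 40 among protein-coding genes by number of called sites. Of positions with 10 or more reads in every imbalanced library, 16.5% were called in ALB, 10.5% in AFP and 8.87% in FGL1. That share was 5.26% in AHSG, 4.67% in SERPINA1, 3.11% in TF, 2.95% in C3 and 2.70% in SERPINA3, against 12.9% in other protein-coding genes. Depth differs between these genes, and its part in the counts by role was not tested.

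**Figure D1:**
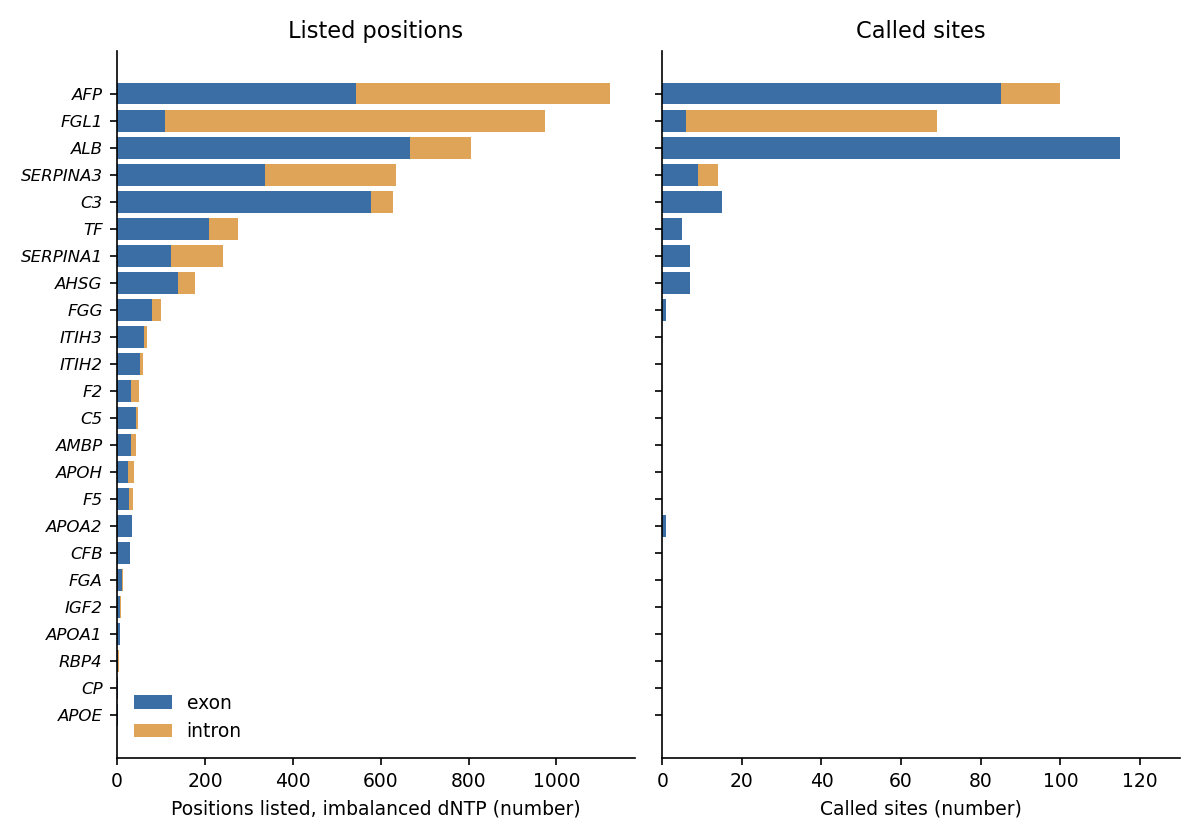
Number of listed positions under imbalanced dNTP (left) and of called sites (right) in each of the 24 genes with a listed position, split into exon and intron by colour. ALB has 115 called sites, all in exons, AFP has 85 in exons and 15 in introns, and FGL1 has 63 of its 69 in introns.

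Albumin, the most abundant protein of blood plasma, has 806 listed positions in ALB (chr4:73397114-73421482), 667 in exons and 139 in introns. Median depth at these positions was 60, 56 and 80 in imbalanced replicates 1, 2 and 3, and 434 of the positions reached a depth of 50 in all 3, more than in any other member. All 115 called sites of ALB lie in exons of the canonical transcript, 114 in the coding sequence and 1 in the 5′ UTR. They occur in each of exons 1 to 14, with 18 in exon 4 and 17 in exon 3, and none of the 17 listed positions of exon 15 was called. Mutation ratios at the called sites ranged from 3.76% to 16.2% with a median of 7.15%. In ALB introns the median of the lowest depth was between 6 and 10.5 in each intron, and no intronic position was called.

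The highest ALB site in the order above, in exon 13, had 16 of 93, 13 of 80 and 18 of 120 reads with T under imbalanced dNTP (16.2% ± 1.11 SD, n = 3). Under balanced dNTP it had 1 of 144, 0 of 117 and 0 of 155. A called site exceeds its input by rule, so these values are a description, as are those of the sites that follow. The exon 3 site had 12 of 81, 13 of 88 and 17 of 131 reads with T (14.2% ± 1.05 SD, n = 3) and has no balanced entry. The exon 11 site was less even, with 20.3%, 7.58% and 10.2% in replicates 1, 2 and 3.

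Alpha-fetoprotein, the fetal counterpart of albumin and a product of many liver cancers, is encoded by AFP (chr4:73431138-73456174), downstream of ALB on the same strand. AFP has the most listed positions of the members (1122, of which 544 exonic and 578 intronic), and its median depth was 31, 28 and 41 in replicates 1, 2 and 3. Its 100 called sites comprise 85 in the coding sequence and 15 in introns. The exonic sites lie in exons 1 to 14, with 13 in exon 12 and 12 in exon 8. Ratios at called sites ranged from 3.12% to 32.6% with a median of 8.57%.

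The highest AFP site at a depth of at least 50 was an A in exon 9, with 7 of 54, 10 of 56 and 17 of 68 reads with T (18.6% ± 6.05 SD, n = 3). Its balanced libraries had 1 of 121, 0 of 65 and 0 of 106. The G in exon 13 reached 7.89%, 15.2% and 13.8%, with 1 of 121, 0 of 95 and 0 of 101 under balanced dNTP. The highest ratio of any called site of the members was in AFP intron 6, where 4 of 13, 4 of 11 and 4 of 13 reads had T (32.6% ± 3.23 SD, n = 3), at the lowest depths of the AFP sites.

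AFP introns were read unevenly. Intron 7 holds 226 of the listed positions and 7 called sites, and intron 8 holds 111 and 3. Introns 6 and 10 have 2 called sites each and intron 2 has 1. The 15 intronic sites lie a median of 150 nt from the nearest splice site, 9 of them within 200 nt. Their median ratio per intron was between 14.3% and 24.9%, at median lowest depths of 13 to 26, where 3 reads with T already make a high ratio.

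**Figure D2:**
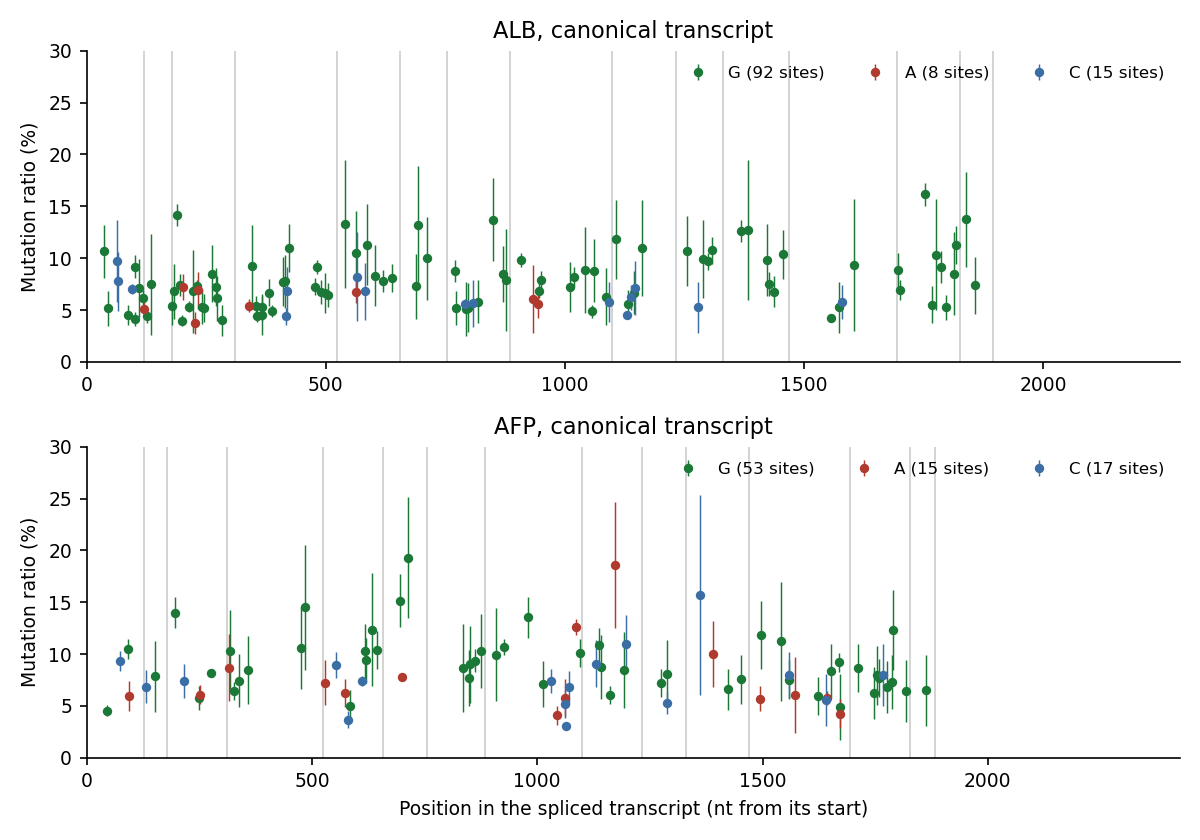
Mean mutation ratio (%) of each called exonic site against its position in the spliced canonical transcript (nt), for ALB (top) and AFP (bottom); points are means of 3 replicates with SD bars, colours give the reference base, and grey lines mark exon borders. G makes up 92 of 115 ALB sites and 53 of 85 exonic AFP sites, and no site lies in the last exon of either gene.

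ALB and AFP arose by duplication, and exons 3 to 13 of their canonical transcripts have equal lengths (11 of 15 exons). At equal offsets these exons have 52.2% identical bases, and 617 offsets hold the same G, A or C in both genes. Of those offsets 46 were called in ALB, 46 in AFP and 13 in both, which is 28.3% of each gene's called offsets, against 7.46% called over all such offsets. Of the 13 offsets 12 hold a G. At the 66 offsets with a G that follows U in both genes, ALB was called at 27, AFP at 28 and both at 12. There 44.4% of the offsets called in ALB were called in AFP, close to the 42.4% of all 66 that were called in AFP, so that the larger shared share over all 617 offsets was not seen among G after U. The last set shows the 3 shared offsets of exon 13, at bases 59, 93 and 125 of the exon, picked after the values were seen.
ALB base 59, chr4:73419555-73419575, plus strand: actgaaagctGttatggatga
AFP base 59, chr4:73453813-73453833, plus strand: acttgaggctGtcattgcaga
ALB base 93, chr4:73419589-73419609, plus strand: gtagagaagtGctgcaaggct
AFP base 93, chr4:73453847-73453867, plus strand: ttggagaaatGctgccaaggc
ALB base 125, chr4:73419621-73419641, plus strand: gacctgctttGccgaggaggt
AFP base 125, chr4:73453879-73453899, plus strand: agtctgctttGctgaagaggt

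At base 59 the ratio was 16.2% ± 1.11 in ALB and 7.97% ± 2.83 in AFP (SD, n = 3). At base 93 it was 9.17% ± 1.54 in ALB and 7.28% ± 2.60 in AFP, and at base 125 11.3% ± 1.86 and 6.45% ± 3.02. ALB lies above AFP in each of the 3 libraries at all 3 bases, by the smallest margin at base 93. Over the shared offsets of the other exons the order was mixed. At base 56 of exon 6 the mean ratio was 9.97% in ALB and 19.3% in AFP, and at base 96 of exon 7 it was 13.7% and 9.02%. These differences between genes were not tested.

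FGL1 encodes fibrinogen-like protein 1, a hepatocyte-secreted relative of the fibrinogen chains. Its annotated body (chr8:17864380-17910365, minus strand) is longer than its canonical transcript, which starts 14841 nt downstream of the gene's 5′ end. Of 975 listed positions 871 lie upstream of the canonical start, and all 69 called sites lie there, in the first 4000 nt of the gene. From the gene start onwards, successive kilobases hold 19, 28, 20 and 2 called sites, and 210, 246, 170 and 61 listed positions. Sites called exonic in FGL1 (6) belong to exons of longer transcripts. The canonical exons have 11 listed positions and none called. No called site counted for FGL1 thus lies in an exon of its canonical mRNA. On the same strand, 349 more positions are listed within 10000 nt upstream of the annotated start, 14 of them called, and the next annotated gene upstream on that strand, ASAH1, lies 145627 nt away. The listed positions thus continue across the annotated start, and whether the 69 sites belong to transcripts of FGL1 or to another transcript of the same strand was not tested.

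The FGL1 site with the highest ratio at a depth of at least 50, a G at chr8 position 17908733, had 13 of 67, 9 of 57 and 14 of 85 reads with T (17.2% ± 1.92 SD, n = 3). Ratios at the 69 sites ranged from 5.15% to 20.9% with a median of 10.9%. Median depth over listed positions of the gene was 28, 25 and 42 in imbalanced replicates 1, 2 and 3. The 63 intronic sites lie a median of 1301 nt from the nearest splice site, and 6 lie within 200 nt.

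**Figure D3:**
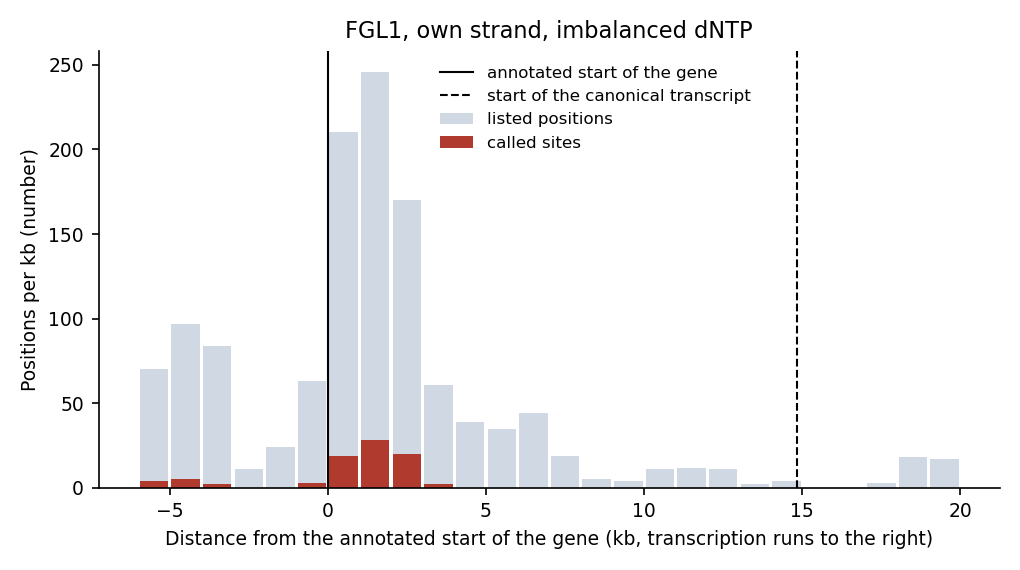
Number of listed positions (grey) and, in front of them, called sites (red) per kb on the strand of FGL1, against the distance in kb from the annotated start of the gene (solid line); the dashed line is the start of the canonical transcript. Successive kilobases after the annotated start hold 19, 28, 20 and 2 called sites.

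C3 encodes the central component of complement. It has 629 listed positions, 578 of them exonic, at median depths of 22, 20 and 32, and its 15 called sites all lie in coding sequence, spread over exons 2 to 37 with at most 2 per exon. The C3 site in exon 36 had 5 of 65, 9 of 57 and 6 of 71 reads with T (10.6% ± 4.47 SD, n = 3). The highest C3 ratio was in exon 8, with 5 of 26, 7 of 34 and 11 of 50 reads (20.6% ± 1.38 SD, n = 3) and a mean balanced ratio of 0.412%. Introns 17 and 33 of the canonical transcript hold 29 and 61 listed positions and none called. Part of these lie in exons of other transcripts and are counted among the 578 exonic ones.

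SERPINA3 encodes alpha-1-antichymotrypsin, a protease inhibitor that rises in the acute phase. It has 634 listed positions (336 exonic) at median depths of 19, 17 and 27, and 14 called sites, 9 in exons and 5 in intron 2. All 14 also lie in ENSG00000273259, a gene annotated over the same strand, so the reads cannot be assigned to SERPINA3 alone. The intron 2 site shown above had 5 of 23, 4 of 20 and 5 of 26 reads with T (20.3% ± 1.29 SD, n = 3).

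Among the members with fewer than 10 called sites, SERPINA1 (alpha-1-antitrypsin) and AHSG (fetuin-A) have 7 each and TF (transferrin, the plasma iron carrier) has 5. Their ratios ranged from 8.15% to 20.2% in SERPINA1, from 9.43% to 15.7% in AHSG and from 15.1% to 27.1% in TF. The highest TF site, in exon 5, had 4 of 24, 9 of 23 and 10 of 39 reads with T. Of the TF sites 1 lies in an overlapping gene of the same strand. FGG, the fibrinogen gamma chain, has 1 site, with 4 of 19, 3 of 13 and 6 of 31 reads. The site of APOA2, an apolipoprotein of high-density lipoprotein, had 3 of 39, 3 of 31 and 4 of 38 reads. A called site has 3 or more reads with T in every imbalanced library by rule, and at these sites no library had more than 10.

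A further 14 members have listed positions and no called site: ITIH3 (67), ITIH2 (58), F2 (49), C5 (47), AMBP (43), APOH (38), F5 (37), CFB (30), FGA (13), IGF2 (9), APOA1 (6), RBP4 (4), CP (3) and APOE (2). At depths of 10 or more in every imbalanced library they have at most 26 positions each, so that few of their positions could be called at this depth. TTR has 3 listed positions under balanced dNTP only. No position is listed in the tables used here for SERPINC1, FGB, APOC3, HP, HPX, ITIH1, ITIH4, KNG1, PLG, VTN and ORM1. The opposite strand of the members has no listed position in either table.

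To compare reads with T between dNTP supplies, the T share was pooled over the 647 member positions that both tables list and that 10 or more reads covered in each of the 6 libraries. It was 5.51%, 6.11% and 6.06% under imbalanced dNTP in replicates 1, 2 and 3, and 0.896%, 0.918% and 0.844% under balanced dNTP. Every imbalanced entry has 3 or more reads with T in some library, while a balanced entry can have 1 in all. The balanced table lists 5229 member positions, and only the 718 of them in both tables could enter, so the choice of positions favours the direction found. The difference was 5.01 points and had the same sign in 3 of 3 pairs (two-sided exact permutation of the pairs, p = 0.25, which is the least that 3 pairs can give). The same share in other protein-coding genes was 3.55%, 3.70% and 3.61% against 0.175%, 0.191% and 0.221%. Depth at the member positions was lower under imbalanced dNTP, at 0.518, 0.685 and 0.749 of the balanced depth.

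The 5 genes with at least 10 called sites are given as a description, since called sites exceed their input by rule. ALB had 4.43%, 4.92% and 4.60% under imbalanced dNTP, against 0.643%, 0.606% and 0.484% under balanced dNTP. AFP had 4.86%, 5.69% and 5.68% against 0.695%, 0.695% and 0.797%. AFP lay above ALB in 3 of 3 imbalanced libraries, though the ranges of the genes overlap. FGL1 had 6.79%, 7.56% and 7.42% against 1.36%, 1.48% and 1.17%, above every library of ALB and AFP. SERPINA3 had 7.74%, 7.86% and 9.24% against 1.04%, 0.507% and 1.01%, and C3 had 7.97%, 8.62% and 8.67% against 1.17%, 1.31% and 1.22%. SERPINA3 and C3 overlap each other. Median depth in imbalanced replicate 1 was 60 in ALB, 31 in AFP, 28 in FGL1, 22 in C3 and 19 in SERPINA3, so that the genes with higher shares were the shallower ones. At lowest depths of 30 to 49 the genes were closer. Exons had 4.41%, 5.04% and 4.38% in ALB, 4.52%, 5.26% and 5.26% in AFP, 5.27%, 5.59% and 6.75% in SERPINA3 and 5.13%, 6.98% and 5.77% in C3, with AFP above ALB in 3 of 3 libraries again. Introns had 5.69%, 5.42% and 5.56% in FGL1 and 4.94%, 6.25% and 5.89% in AFP, with no common order over the libraries. The order of AFP and ALB exons did not hold in the other depth windows. At 50 to 99 ALB exons had 3.92%, 4.26% and 4.09% (434 positions) and AFP exons 3.83%, 4.50% and 4.00% (218 positions). At 20 to 29 ALB exons had 3.61%, 5.32% and 5.44% (28 positions) and AFP exons 5.56%, 5.11% and 4.84% (40 positions).

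**Figure D4:**
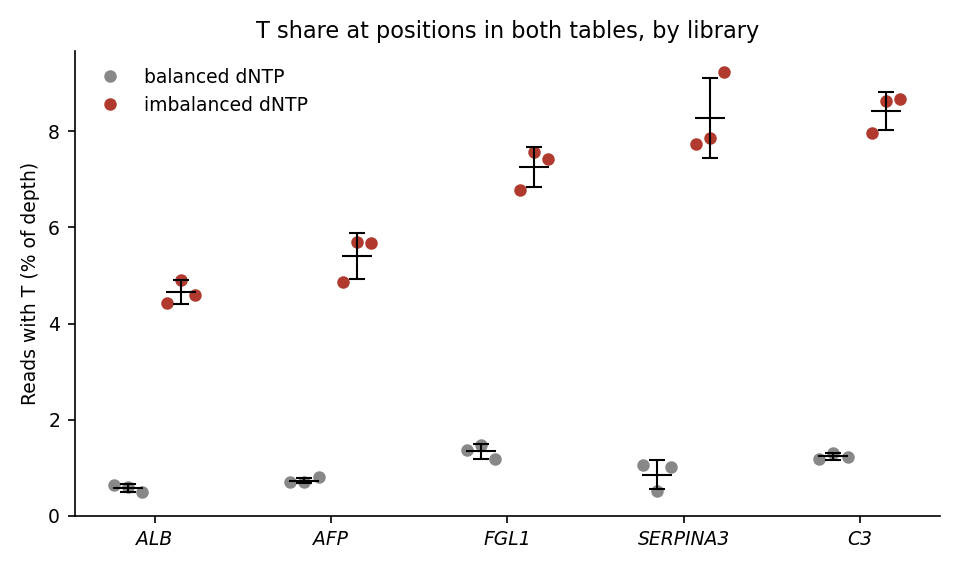
Reads with T (% of depth) at positions listed in both tables, for 5 genes; each point is 1 library (red imbalanced, grey balanced dNTP), and black marks give mean and SD of 3 replicates. Imbalanced libraries lie between 4.43% and 9.24%, and balanced libraries between 0.484% and 1.48%.

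Position by position, edgeR's quasi-likelihood test over all 32284 positions called 202 of the 647 member positions higher under imbalanced dNTP at an adjusted p under 0.05, and 0 lower (0 also at an unadjusted p under 0.05 and by DESeq2). These are the positions of the pooled share above, listed for their reads with T under imbalanced dNTP. That listing favours higher calls over lower ones, so this direction is a description. Over all tested positions 73.9% were higher and 0.0558% lower. The members' share is thus below the background, and their median log2 change of 2.94 is below the 3.94 of all positions. In other protein-coding genes 52.3% were higher, and 29.6% when positions in small RNA genes were left out, a choice made after seeing the data. Depth differs between these sets, and member positions with a lowest depth of 20 to 49 over the 6 libraries were called in 32.1% of cases against 34.3% of those in other protein-coding genes, and at 50 to 99 in 48.9% against 59.6%. By gene, 71 of 165 positions were higher in ALB, 63 of 173 in AFP, 33 of 114 in FGL1, 23 of 86 in C3 and 6 of 58 in SERPINA3. Without the replicate as a block the count was 384, and leaving out replicate 1, 2 or 3 gave 26, 37 or 29, while DESeq2 called 260.

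Exons and introns of the members were compared under imbalanced dNTP. At depths of at least 50 in all 3 libraries, the T share was 3.88%, 4.36% and 4.07% over 660 exonic positions and 4.90%, 5.42% and 5.31% over 51 intronic ones. The exonic share was lower by 1.11 points in mean, in 3 of 3 libraries (p = 0.25 by two-sided exact permutation of the pairs, again the least possible). All 51 intronic positions are in FGL1, so exon against intron cannot be told apart from gene against gene here. At depths from 20 up to 50 the difference was -0.59 points (1170 exonic and 683 intronic positions).

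Within genes, only AFP, FGL1 and SERPINA3 had 5 or more positions in each class at a depth of at least 20. At that depth edgeR called 42.9% of 49 protein-coding genes (22.4% higher in introns, 20.4% lower). The T share of AFP was higher in introns by 0.74 on the log2 scale (adjusted p = 6.29e-12 by edgeR), with 523 exonic and 154 intronic positions. That of FGL1 was lower in introns than in exons of its longer transcripts (log2 change -0.39, edgeR adjusted p = 5.85e-05), and that of SERPINA3 did not pass (0.07, edgeR adjusted p = 0.569). Exons here are the union of all transcripts. Of the 336 exonic listed positions of SERPINA3, counted at any depth, 161 lie in canonical exons. The SERPINA3 result is thus not one for canonical exons against introns. AFP introns are shallower than its exons. At lowest depths of 20 to 29, the T share of AFP was 7.91%, 7.78% and 7.82% in introns (129 positions) and 5.56%, 5.11% and 4.84% in exons (40 positions), with no overlap. At 30 to 49 it was 4.94%, 6.25% and 5.89% in introns (25 positions) and 4.52%, 5.26% and 5.26% in exons (265 positions), a smaller difference that again had introns above exons in 3 of 3 libraries. The windows do not match base or depth. G made up 44.2% of intronic and 17.5% of exonic positions at 20 to 29, and 44% and 34.3% at 30 to 49. Median lowest depths were 23 and 27, and 34 and 41. Called shares at 30 to 49 ran the other way, 4% in introns and 13.2% in exons. The part of base and depth was not tested. The FGL1 call was lost without replicate 1 (edgeR adjusted p = 0.192).

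The reference base was G at 235 of the 334 called sites (70.4%, Wilson 95% interval 65.3 to 75.0), A at 45 and C at 54. Among member positions listed at the same minimum depth and not called, 40.5% were G, and among called sites of other protein-coding genes 51.5%. G made up 92 of 115 sites in ALB (80.0%), 63 of 100 in AFP, 48 of 69 in FGL1 and 11 of 14 in SERPINA3, and 6 of 15 in C3, where C had 7. Positions that passed the criteria in 1 library had a lower share of G, 49.2%, 48.4% and 47.0% in replicates 1, 2 and 3. The intervals hold counting error alone, and sites close to each other are read on the same molecules.

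U on both sides of the called base, the UNU context, was found at 33.8% of called sites of the members (28.97 to 39.1), at 17.9% of positions not called and at 26.1% of called sites of other protein-coding genes. For G most of this lay on the 5′ side. The counts by neighbouring base and by codon that follow were chosen after values were seen. A U preceded 217 of 235 called G (92.3%, 88.2 to 95.1), 27 of 45 called A (60.0%) and 30 of 54 called C (55.6%). Of listed G that were not called 73.4% followed U, and of G listed under balanced dNTP 39.3%. In the other protein-coding genes 78.8% of called G followed U, so that U was common before called G there too; this difference between gene sets was not tested. U followed the called G in 44.7% of cases in the members and in the others.

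The coding sequences of ALB and AFP allow the same count over every G, listed or not. In ALB 80 of 191 G after U were called (41.9%, 35.1 to 48.97), against 11 of 230 other G (4.78%, 2.69 to 8.36). In AFP 52 of 150 G after U were called (34.7%, 27.5 to 42.6), against 1 of 246 other G (0.407%, 0.0718 to 2.27). A U on both sides gave the highest share, 27 of 40 in ALB (67.5%) and 20 of 32 in AFP (62.5%), followed by U before and C after, with 32 of 68 (47.1%) and 19 of 45 (42.2%). UGU and UGC are the codons of cysteine, in which both proteins are rich. Of the G in cysteine codons 19 of 35 were called in ALB (54.3%, 38.2 to 69.5) and 18 of 32 in AFP (56.3%, 39.3 to 71.8), and of the other G after U 61 of 156 (39.1%, 31.8 to 46.9) and 34 of 118 (28.8%, 21.4 to 37.6). Those intervals overlap in ALB and not in AFP. In a cysteine codon only U or C can follow the G, while the other G after U include those before A or G. Before A, 17 of 63 were called in ALB and 5 of 42 in AFP. Before G, 4 of 20 were called in ALB and 8 of 31 in AFP. The intervals for cysteine codons and other G thus do not compare like neighbours, and the part of this in the difference was not tested.

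**Figure D5:**
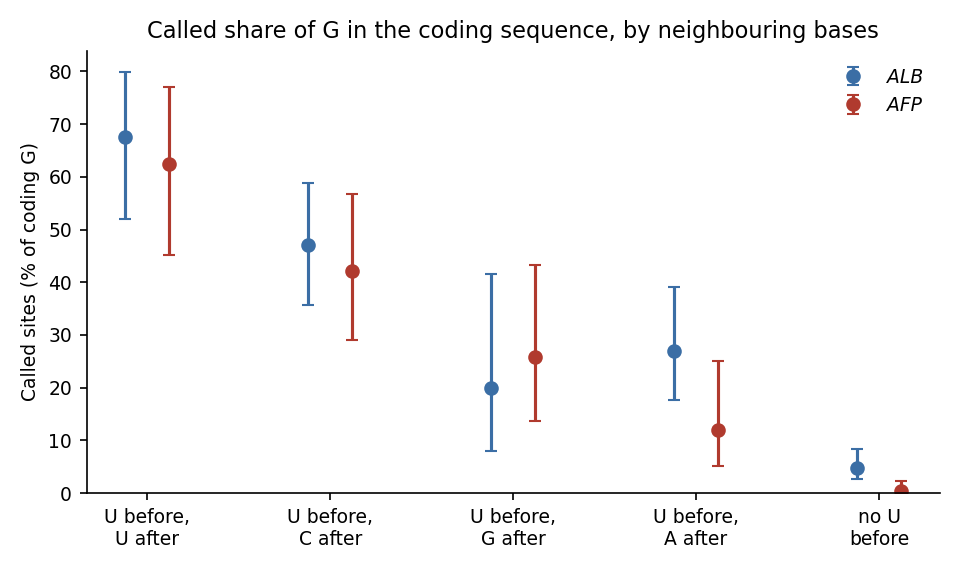
Called sites as % of all G in the coding sequence of ALB (blue) and AFP (red), by the base before and after the G; bars are Wilson 95% intervals and cover counting error only. With U on both sides 67.5% and 62.5% were called, and without U before the G 4.78% and 0.407%.

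The preceding base also went with the T share itself. At member positions in both tables, G after U had T shares of 7.31%, 7.50% and 7.36% in imbalanced replicates 1, 2 and 3 (210 positions), against 4.48%, 5.20% and 4.82% for other G (71 positions). The libraries do not overlap. Balanced libraries had shares of 0.498%, 0.470% and 0.500% after U and 0.504%, 0.580% and 0.567% elsewhere, slightly lower after U. edgeR called 110 of the 210 G after U and 19 of the 71 others higher. For A the imbalanced shares were 5.90%, 6.77% and 6.17% after U and 4.08%, 4.80% and 4.65% elsewhere, and for C 5.44%, 6.03% and 6.399% against 4.30%, 5.29% and 5.57%. Both bases were higher after U in 3 of 3 libraries when pooled over the members. Among ALB, AFP, FGL1 and C3 that order held in 3 of 3 libraries for A except in FGL1, and for C except in AFP and C3. Balanced shares of A in FGL1 were 0.802%, 0.308% and 0.539% after U and 5.28%, 5.04% and 4.31% elsewhere. Those of C in ALB were 3.06%, 2.36% and 1.41% after U and 0.244%, 0.325% and 0.362% elsewhere. In AFP, FGL1 and C3 balanced C was lower after U in 3 of 3 libraries. The part of this in the orders by gene was not tested. Pooled over the members, balanced shares of A were 0.680%, 0.384% and 0.493% after U and 1.15%, 1.28% and 1.10% elsewhere. Those of C were 1.58%, 1.23% and 0.896% after U and 1.27%, 1.57% and 1.49% elsewhere.

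Called sites were close together in ALB and AFP. In ALB 91 of 115 sites (79.1%) had another called site within 10 nt, in AFP 55 of 100 and in FGL1 32 of 69, while C3 and SERPINA3 had none. The median distance to the nearest called site was 5 nt in ALB, 10 nt in AFP, 12 nt in FGL1 and 61 nt in C3. The number of called sites per gene differs as well, and its part in these shares was not tested. The median ratio of called sites was 7.15% in ALB, 8.57% in AFP, 10.9% in FGL1, 14.2% in C3 and 14.5% in SERPINA3, and the median lowest depth was 70, 48.5, 35, 26 and 25.5 in the same order.

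Compared with other protein-coding genes, the members' T share at depths of at least 50 was higher by 0.72 points in mean, 3.94%, 4.42% and 4.15% against 3.41%, 3.56% and 3.39% (711 and 12598 positions, 3 of 3 libraries, p = 0.25 by the same exact permutation). This direction did not hold at matched depth, nor without positions in small RNA genes (-0.078 points). No member position has a depth of 100 or more in all 3 libraries, and in the window of 50 to 99 the members were lower, 3.94%, 4.42% and 4.15% against 4.45%, 4.63% and 4.44%. They were lower in 3 of 3 libraries also at 30 to 49 (by 0.51 points in mean) and at 20 to 29 (by 0.47 points). Called shares ran the same way, 22.8% against 28.0%, 11.3% against 14.3% and 4.95% against 6.62% from the deepest window to the shallowest.

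The wider set of plasma protein genes shows how unevenly the tables cover this class. Of 87 further genes 15 have listed positions, and 4 have called sites. A2M, a broad protease inhibitor, has 833, APOB, the scaffold of low-density lipoprotein, has 739, and FN1, the plasma and matrix protein fibronectin, has 552. AGT, the precursor of angiotensin, has 1, and TFPI, an inhibitor of coagulation named for its number of listed positions, has 181 listed positions and none called. ALB and AFP, with 115 and 100 sites, come next after the first 3 in the combined set.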

How the data were processed

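Nm-mut-seq was performed by the authors on HepG2 caRNA, from which rRNA and short RNA had been removed, in 3 biological replicates with single-end reads of 100 nt. Adapter trimming by the authors used Cutadapt. BBMap collapsed duplicates that shared a molecular identifier, TopHat2 aligned the reads to hg38 (up to 4 placements, 3 mismatches and an edit distance of 3), and JACUSA tallied the bases. Versions are not given in the sources used here. The deposited values are counts of reads with each base, for every listed position and strand in a library, and were not normalized; the deposited JACUSA score was not used. Reads could map to up to 4 places, so positions with near-identical copies are uncertain. The study's spike-in criterion was not applied, because the spike-in is not analysed here.

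The 36 members, the wider list and the tests were chosen with earlier results of these data known. The lists hold genes by protein role. Every library value is given for members with at least 10 called sites; of the wider list the 5 genes with most called sites were to be named, and as 4 have any, the other is the gene without calls that has most listed positions. All 387463 listed reference bases match hg38. Exons are the union of all transcripts of GENCODE release 44, and canonical exons are those of the Ensembl canonical transcript.

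Mutated and unmutated counts were tested by the quasi-likelihood test of edgeR (version 4.0.16; R 4.3.3), with p-values adjusted over all positions or genes by Benjamini-Hochberg, with an effect for each library and the replicate as a block on the mutated share; DESeq2 1.42.0 was an alternative. Tested on simulated data with 200 positions changed 4-fold among 32284, the fit recovered 63.0% of them and called 2 others. The simulated counts were binomial, without added variation between replicates, and the other positions were left unchanged. Recovery and false calls in the real data can therefore differ. Other steps ran in Python 3.11.15 with matplotlib 3.10.9, scipy 1.17.1, pandas 2.3.3 and numpy 2.4.6. Libraries were paired by replicate number, since each pair comes from 1 ligated RNA. Deviations of log2 depth correlated at 0.75, 0.59 and 0.87 within pairs over 24432 positions, and replicates 1 and 2 also correlated across numbers (0.70 and 0.60). Shares have Wilson 95% intervals, which cover counting error only. Alternatives changed the minimum depth, reads with T, fold of input, ratio, input, tool, block, gene sets and replicates.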

Additional observations from a re-analysis of the deposited data

How the results depend on the processing

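The 334 called sites became 162 at a depth of at least 50, 83 with at least 5 reads with T and 99 where the balanced table had to list the position. They numbered between 251 and 335 under the remaining alternatives that kept all replicates, and between 496 and 702 when 1 replicate was left out, since fewer libraries then had to pass. Without 1 replicate ALB had 153 to 193 sites, AFP 133 to 183, FGL1 99 to 144, C3 34 to 61 and SERPINA3 28 to 63, and 13 to 16 members had any. Outside other genes of the same strand SERPINA3 kept 0 of its 14 sites. The share of G was 72.5% and that of UNU 39.4% where every replicate had to reach a ratio of 0.05, UNU was 27.8% at a depth of at least 50, and without 1 replicate they ranged from 61.6% to 62.5% and from 28.98% to 31.8%. Without the replicate block 384 member positions were higher under imbalanced dNTP in place of 202, and without 1 replicate 26 to 37; the cause was not tested. The difference between dNTP supplies kept its sign under each of its alternatives. The difference between exons and introns did so too, with -1.15 to -1.04 points without 1 replicate. Its value stayed at -1.11 at depths of 50 to 200 or 50 to 100 and with canonical exons only. The same 660 exonic and 51 intronic positions entered there, so these alternatives could not move it. All 51 are in FGL1, so where they form the intronic side, exon against intron cannot be told apart from gene against gene.

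The difference between members and other protein-coding genes turned from 0.72 to -0.11 points at depths of 50 to 200, -0.17 with 1 mean per gene, -0.60 at depths of 20 to 50 and -0.078 without positions in small RNA genes; the last 2 were added after seeing the data. No member could be fitted for exon against intron at a depth of at least 50. At a depth of at least 20, and at 20 to 50, 2 members were called, with or without the replicate block, and 1 or 2 when 1 replicate was left out; at 20 to 50, edgeR called 29% of 31 genes. All settings at 20 to 50, and those at 20 without the block or without 1 replicate, were added after seeing the data. At a depth of at least 100 no member position remains. The 14 genes with listed positions and no call have at most 26 positions each at a depth of 10 or more, and every imbalanced entry has 3 or more reads with T in some library.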

Other observations

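The 8 positions that passed with the imbalanced and balanced libraries exchanged lie in FGL1 (4), C3 (2), SERPINA1 (1) and ITIH2 (1). Over all listed positions, 297 passed with the libraries exchanged, against 29651 called sites, which again gives no rate of false calls. The balanced table lists 5229 positions of the members, of which 718 are also listed under imbalanced dNTP. Several members have more positions in the balanced table than in the imbalanced one, among them IGF2, an insulin-like growth factor, with 93 against 9, and APOA1, the main protein of high-density lipoprotein, with 46 against 6.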
